A study of Mus musculus with 18 samples.

Results

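The mRNAs of 7 proteins that bind 3′ untranslated regions (3′ UTRs), Zfp36, Zfp36l1, Zfp36l2, Khsrp, Hnrnpd, Elavl1 and Pum2, were followed through polysome gradients of mouse embryonic stem cells (ESCs) with and without the RNA helicase DDX6. The members were listed by name and matched to gene identifiers, and all 7 of the 51467 genes in the table were found and passed the filter on low counts. V6.5 ESCs were either wild type (WT) or carried a Ddx6 knockout (Ddx6 KO) made with CRISPR-Cas9, and both were kept in medium with serum, LIF and 2i (the inhibitors PD0325901 and CHIR99021). All cells were treated with cycloheximide at 100 µg/ml for 2 minutes, which holds ribosomes on their mRNA, and lysates were spread over sucrose gradients. The monosome of each gradient was sequenced from the 3′ ends of its mRNAs, as were a light part with 2 to 4 ribosomes, called low polysome, and a heavy part with 4 or more, called high polysome. There were 3 gradients per genotype, hence 18 libraries in 6 groups of 3. Each Ddx6 KO line was a single clone, with clone 1 in KO gradient 1 and clone 2 in KO gradients 2 and 3. Fractions of 1 gradient came from 1 lysate, but nothing in the labels says that the gradients came from separate cultures, so p-values measure the spread between these samples.

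AU-rich elements are stretches of A and U in the 3′ UTRs of many short-lived mRNAs. The ZFP36 proteins (Zfp36, also called tristetraprolin, and its relatives Zfp36l1 and Zfp36l2) bind them through paired zinc fingers and recruit the CCR4-NOT deadenylase, KHSRP (KSRP) binds them through KH domains and recruits decay enzymes, and HNRNPD (AUF1) binds them with effects on decay that depend on the context. ELAVL1 (HuR) binds U-rich and AU-rich stretches and is best known for stabilising the mRNAs it holds, while PUM2 reads the Pumilio element through its PUF repeats and lowers the stability and translation of its targets. DDX6 joins the CCR4-NOT complex to translational repression and decapping, and is a core component of P-bodies.

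Several of the 7 genes carry in their own 3′ UTR the letters that such proteins read. The sites below are shown because they place the full-length motif matches in the genes that carry one, and for Elavl1 the first of 8 overlapping or neighbouring matches stands for the row. Capitals mark the match named, which is the AU nonamer TTATTTATT for the first 4 and the Pumilio element TGTANATA for Pum2, and 10 bases of 3′ UTR flank it on each side. The lower-case bases after the Elavl1 match hold parts of further nonamers.
Zfp36: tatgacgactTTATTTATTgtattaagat
Zfp36l1: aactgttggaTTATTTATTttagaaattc
Zfp36l2: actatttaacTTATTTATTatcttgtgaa
Elavl1 first site: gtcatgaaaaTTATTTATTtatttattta
Pum2 first site: tttatagagaTGTATATAgaattatagt
Pum2 second site: tgtacagaatTGTATATActtataattg
Sequences are in the sense of the mRNA, on the GRCm38 assembly. The sites lie on the minus strand at chr7:28376951-28376979 for Zfp36, chr12:80108167-80108195 for Zfp36l1, chr17:84184914-84184942 for Zfp36l2 and chr8:4285788-4285816 for Elavl1, and on the plus strand at chr12:8750155-8750182 and chr12:8750408-8750435 for Pum2. Each is in the last exon of its transcript, which is exon 2 of 2 in the 3 ZFP36 family genes, exon 6 of 6 in Elavl1 and exon 21 of 21 in Pum2.

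Each ZFP36 family gene held 1 nonamer, whereas the Elavl1 3′ UTR held 8, most of which overlap in a row of ATTTA repeats. Khsrp, Hnrnpd and Pum2 held none. Only the mRNA strand was searched, overlapping matches were counted, and each nonamer contains the shorter pentamer ATTTA. The nonamer was present in 7.5% of the 11694 tested genes with a 3′ UTR. Among genes whose 3′ UTR was within 20% of the same length, it was present in 4.59% for Zfp36 (774 nt), 8.97% for Zfp36l1 (1835 nt) and 8.98% for Zfp36l2 (1822 nt). For Elavl1 (4218 nt) it was present in 18% of 824 such genes. The share with at least 8 was 0.121%, which is Elavl1 alone, as each set includes the member itself. The Pumilio element was present in 24.9% of the tested genes with a 3′ UTR and in 44.5% of those about as long as that of Pum2 (2861 nt), of which 13.9% had at least 2. No match of the Pumilio letters was found in the other 6 members. ATTTA occurred 17 times in Elavl1, 10 times in Hnrnpd and in Pum2, 9 times in Zfp36l1, 5 times in Zfp36l2, 3 times in Zfp36 and once in Khsrp. These matches describe letters and do not show binding.

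The libraries held 2543617 to 11474550 counts in genes, the lowest being WT monosome 1. Ddx6 itself averaged 153 to 190 CPM (read counts scaled to the size of each library, with TMM factors) in the 3 WT fractions and 26 to 40.4 CPM in Ddx6 KO. Clone 1 kept 55.3 to 82.7 CPM and clone 2 9.68 to 26.7 CPM, and these 3′ end reads lie outside the edited exon, so they do not test the edit. The study reported edits that give a premature stop, and no DDX6 protein by western blot, for both clones. All 7 ESC markers passed the filter, and their sum was 1730 to 3180 CPM in WT and 1670 to 3070 CPM in Ddx6 KO libraries. Of 6 fibroblast markers 2 passed, the sum was 4.65 to 10.7 CPM in WT and 5.79 to 11.1 CPM in KO, and Col3a1 was at 0 throughout. Of 5 primitive endoderm markers none passed, at 1.99 to 7.3 CPM in WT and 2.89 to 10.2 CPM in KO. Of 4 primed epiblast markers 2 passed, with a sum of 37.2 to 81.5 CPM in WT and 12.7 to 29.0 CPM in KO, and Fgf5 was at 0 in all libraries. The lower sum in KO came mainly from Otx2 (median 40.5 CPM in WT and 7.39 CPM in KO) and less from Pou3f1 (13.5 and 8.94 CPM), while Sox3 was at 1.19 and 1.45 CPM, and the part of this difference in the results was not tested.

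Hnrnpd, Elavl1 and Khsrp had the highest mean CPM of the members in each WT fraction, whereas Zfp36l1 had the highest in the KO monosome (157 CPM), and Zfp36 and Zfp36l2 had the lowest in all 6 groups. Levels can be compared between genes because a 3′ end library gives about 1 read per transcript whatever its length, although reads lost to multiple mapping differ between genes. Across the 18 libraries, Hnrnpd ranged from 97.2 to 376 CPM, Elavl1 from 73.3 to 305 CPM and Khsrp from 76.5 to 216 CPM. Pum2 stood lower, at 36.2 to 77.6 CPM, and Zfp36l1 spanned the widest range in proportion, at 18.1 to 193 CPM. Zfp36 was found at 4.79 to 17.9 CPM and Zfp36l2 at 2.9 to 17.6 CPM, on 24 to 169 and 14 to 158 counts per library, so the values of this pair are the least precise.

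**Figure D1:**
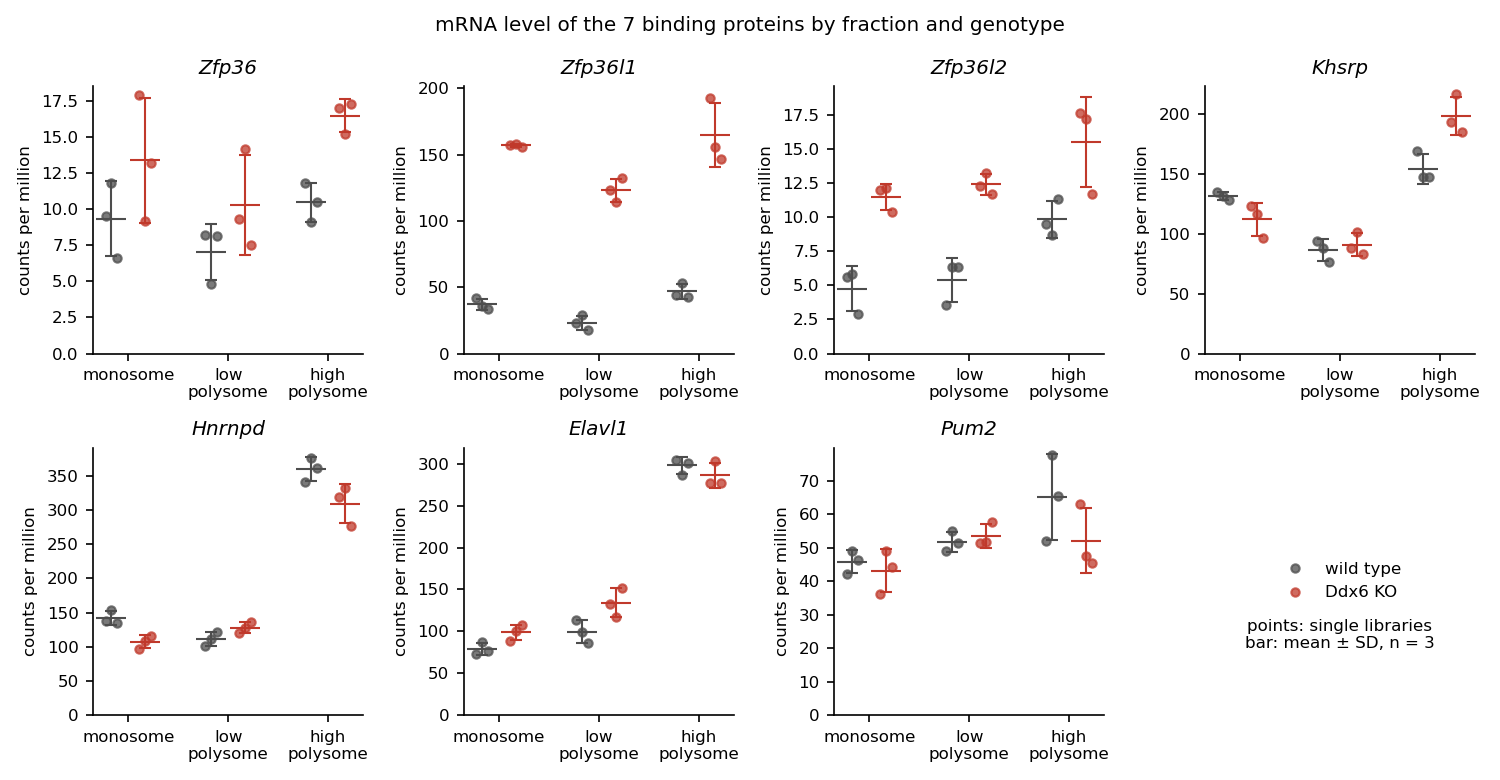
Level of each mRNA (vertical axis, CPM, from 0) in the 3 fractions of WT (grey) and Ddx6 KO (red) ESCs; points are single libraries and bars the mean ± SD (n = 3). Zfp36l1 was 33.6 to 53.5 CPM in the WT monosome and high polysome and 147 to 193 CPM in the KO ones, whereas Hnrnpd and Elavl1 differ mainly between fractions.

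The first question was where these mRNAs sit in WT gradients. Elavl1, the stabiliser, was the member most shifted to the high polysome, followed by Hnrnpd. Elavl1 was at 73.3, 86.7 and 76.7 CPM in the 3 WT monosome libraries and at 305, 287 and 301 CPM in the high polysome. All high polysome values lay above all monosome values, and the log2 ratio was 1.91 (SE 0.13, limma adjusted p = 1.62e-10), a 3.76-fold difference that ranked 102 of 12705 tested genes from the highest. Hnrnpd was at 137, 154 and 135 CPM in the monosome and at 341, 376 and 361 CPM in the high polysome, a 2.53-fold difference (log2 1.34, adjusted p = 4.75e-09). These groups were as clearly apart.

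Zfp36l2 and Pum2 were also higher in the WT high polysome. Zfp36l2 rose from 5.58, 5.81 and 2.9 CPM in the monosome to 9.5, 8.7 and 11.3 CPM (log2 1.13, adjusted p = 0.00483), and without WT gradient 3, whose monosome value was the lowest, the log2 ratio was 0.64 (adjusted p = 0.155). Pum2 rose from 42.2, 49.0 and 46.4 CPM to 52.1, 77.6 and 65.6 CPM (log2 0.48, adjusted p = 0.0183), and the call was lost without gradient 2 (adjusted p = 0.126) or gradient 3 (adjusted p = 0.0901). Zfp36l1 had a log2 ratio of 0.36 (adjusted p = 0.0686) which passed in 6 of 14 alternatives, among them the fit with the gradient as a block (adjusted p = 0.0471), and was 0.14 (adjusted p = 0.447) with the trend over coding length removed. Khsrp (0.23, adjusted p = 0.115) and Zfp36 (0.20, adjusted p = 0.603) did not pass, although Khsrp did without the filter on low counts (0.36, adjusted p = 0.0218) and with that trend removed (0.34, adjusted p = 0.0283). In all, 4 of 7 members were higher and none lower, where 61.1% of all tested genes were called (28.9% higher and 32.2% lower). The median over members was 0.48, beside -0.02 over all genes, and the fraction ranges of 6 members did not overlap, as was so for 68.4% of all genes.

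The low polysome levels of WT cells are given as a description, without a test against the other fractions. The mean low polysome level was 23.3 CPM for Zfp36l1 against 37.1 CPM in the monosome and 47.0 CPM in the high polysome, with no overlap between neighbouring groups. Khsrp showed the same order, at 86.2, 131 and 154 CPM. The means of Hnrnpd (111, 142 and 360 CPM) and Zfp36 (7.04, 9.35 and 10.5 CPM) were so ordered too, though Zfp36 values overlapped. Elavl1 and Pum2 instead had their lowest WT mean in the monosome, at 78.9 and 45.9 CPM, and an intermediate one in the low polysome, at 99.5 and 51.8 CPM. So did Zfp36l2, at 4.76 and 5.41 CPM. The monosome and low polysome values of Elavl1 and Zfp36l2 overlapped.

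Loss of DDX6 was accompanied by a higher level of all 3 ZFP36 family mRNAs in the high polysome, and Zfp36l1 showed by far the greatest change among the members. Zfp36l1 was at 41.8, 35.8 and 33.6 CPM in the WT monosome and at 157, 158 and 156 CPM in the Ddx6 KO monosome. In the low polysome it was at 23.2, 28.7 and 18.1 CPM in WT and at 123, 114 and 132 CPM in KO, and in the high polysome at 44.4, 53.5 and 42.9 CPM in WT and at 193, 156 and 147 CPM in KO. Every KO library stood above every WT library, also across fractions, and the KO clones were alike in the monosome. For the monosome the log2 change was 2.10 or 4.3-fold (SE 0.16, limma adjusted p = 7.37e-09). For the low polysome it was 2.42 or 5.37-fold (SE 0.16, adjusted p = 3.21e-10), and for the high polysome 1.81 or 3.51-fold (SE 0.14, adjusted p = 4.28e-09). They ranked 259, 208 and 411 of 12705 genes. As the libraries are scaled to 1 another, a change is relative to the other mRNAs of the fraction, and more RNA per cell cannot be told apart from more cells with that RNA. Zfp36l1 has a processed pseudogene, Zfp36l1-ps, so that unique mapping can undercount it in both genotypes.

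Zfp36l2 rose in all 3 fractions from a much lower level. It was at 5.58, 5.81 and 2.9 CPM in the WT monosome against 12, 12.1 and 10.4 CPM in KO (log2 1.36, SE 0.32, adjusted p = 0.00238). In the low polysome it was at 3.55, 6.34 and 6.34 CPM in WT against 12.3, 13.2 and 11.7 CPM in KO (log2 1.24, SE 0.25, adjusted p = 0.000429). High polysome libraries were at 9.5, 8.7 and 11.3 CPM against 17.6, 17.2 and 11.7 CPM (log2 0.63, SE 0.20, adjusted p = 0.0166). The groups did not overlap in any fraction, though KO gradient 3 came close to WT in the high polysome. That last call was lost without WT gradient 2 (adjusted p = 0.0818), KO gradient 1 (adjusted p = 0.0784) or KO gradient 2 (adjusted p = 0.0805), and with the trend over coding length removed (0.49, adjusted p = 0.0555).

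Zfp36, the founding member, changed less. Its high polysome level was 11.8, 9.1 and 10.5 CPM in WT and 17, 15.2 and 17.3 CPM in KO, with no overlap (log2 0.67, SE 0.24, adjusted p = 0.026). Leaving out WT gradient 1, 2 or 3 or KO gradient 3 ended that call, with adjusted p of 0.0525, 0.092, 0.0539 and 0.0856, while the log2 change stayed at 0.58 to 0.69. The call was also lost without the filter on low counts (0.655, adjusted p = 0.0532) and by the DESeq2 test (0.591, adjusted p = 0.0567). In the monosome (log2 0.52, 95% interval -0.13 to 1.17, adjusted p = 0.201) and in the low polysome (0.49, -0.11 to 1.09, adjusted p = 0.17) the groups overlapped and no change passed.

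Summed over the family, the 3 mRNAs of WT cells came to 51.2 ± 7.2 CPM (SD, n = 3) for the monosome, 35.8 ± 3.71 CPM for the low polysome and 67.2 ± 3.57 CPM for the high polysome. The Ddx6 KO sums were 182 ± 4.05, 146 ± 4.8 and 197 ± 26.9 CPM in that order. Zfp36l1 made up most of the sum in both genotypes, at 64.7% to 72.8% in the WT fractions and 83.7% to 86.3% in the KO fractions. The lowest share in a KO library, 80.7%, was above the highest in a WT library, 77.9%. Zfp36 correspondingly had 15.6% to 20.1% of the sum in WT and 7.15% to 8.46% in KO.

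**Figure D2:**
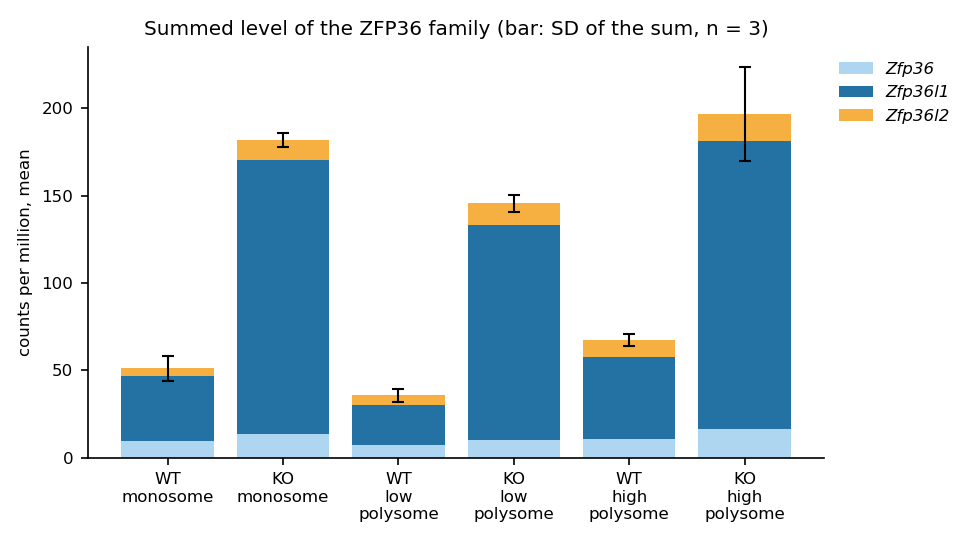
Mean level of Zfp36, Zfp36l1 and Zfp36l2 stacked within each of the 6 groups (vertical axis, CPM, from 0; error bar, SD of the sum, n = 3). The stack is 35.8 to 67.2 CPM in the WT fractions and 146 to 197 CPM in the Ddx6 KO fractions, and Zfp36l1 fills most of each.

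Khsrp moved between fractions rather than in all of them. In the monosome it was at 135, 131 and 128 CPM in WT and at 123, 116 and 96.3 CPM in KO (log2 -0.24, adjusted p = 0.151). In the low polysome the values were 94.1, 88.2 and 76.5 CPM in WT and 87.9, 101 and 82.8 CPM in KO (0.07, adjusted p = 0.677). In the high polysome they were 169, 147 and 147 CPM in WT and 193, 216 and 185 CPM in KO (0.36, SE 0.12, adjusted p = 0.0197). KO thus lay below WT in the monosome without passing the test, overlapped it in the low polysome and rose above it in the high polysome. The high polysome call was lost without WT gradient 2 (adjusted p = 0.0987), WT gradient 3 (0.066) or KO gradient 2 (0.0908), and with the trend over coding length removed the change was 0.09 (adjusted p = 0.586). It was also lost in limma with DESeq2 size factors (0.29, adjusted p = 0.0548) and by the DESeq2 test (0.29, adjusted p = 0.0501).

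The translation level, taken here as the log2 ratio of high polysome to monosome, was therefore higher for Khsrp in Ddx6 KO. WT gradients 1 to 3 gave 0.33, 0.17 and 0.20, KO gradients 1 to 3 gave 0.65, 0.89 and 0.94, and the groups did not overlap. The interaction term, which tests the KO ratio against the WT ratio, was 0.59 (SE 0.18, adjusted p = 0.0247), or 1.51-fold, and Khsrp was the only member of 7 that passed. Over all genes 17.8% passed (10.7% higher and 7.09% lower), and with scaling by library size alone those calls went from 1357 higher and 901 lower to 936 and 1386. Leaving out any gradient but KO gradient 1 ended the call, with adjusted p of 0.0641 to 0.114 and log2 values of 0.52 to 0.58. Genes within 20% of the coding length of Khsrp (2247 nt) had a median of 0.35, and once the trend with coding length was removed the term was 0.25 (adjusted p = 0.424).

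Hnrnpd fell in the KO monosome. It was at 137, 154 and 135 CPM in WT and at 97.2, 109 and 116 CPM in KO, with no overlap (log2 -0.41, SE 0.12, adjusted p = 0.0101), and the call was lost without WT gradient 2 (adjusted p = 0.0805). In the low polysome the values were 101, 111 and 121 CPM in WT and 120, 127 and 136 CPM in KO (0.20, 95% interval -0.04 to 0.44, adjusted p = 0.164). High polysome values were 341, 376 and 361 CPM in WT and 319, 332 and 277 CPM in KO (-0.22, interval -0.45 to 0.01, adjusted p = 0.111). The low polysome groups overlapped narrowly and the high polysome groups did not, KO being lower, and DESeq2 called that last difference (-0.29, adjusted p = 0.0236).

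The ratio of low polysome to monosome for Hnrnpd was -0.43, -0.47 and -0.15 for WT and 0.30, 0.21 and 0.23 for KO gradients, negative in all of the former and positive in all of the latter. The interaction was 0.60 (SE 0.17, adjusted p = 0.0417), the only call among the 7 members in a comparison where 4.71% of all genes passed (2.31% higher and 2.39% lower). Leaving out any single gradient ended the call, with adjusted p of 0.0524 to 0.195 and values of 0.54 to 0.71. Genes of like coding length had a median of 0.07. The ratio of high polysome to monosome differed by 0.19 (95% interval -0.15 to 0.52, adjusted p = 0.45).

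Elavl1 rose in the KO low polysome, from 113, 99.4 and 85.7 CPM in WT to 132, 117 and 152 CPM, with no overlap (log2 0.43, SE 0.13, adjusted p = 0.00783). The call was lost without WT gradient 3 (adjusted p = 0.07) or KO gradient 3 (adjusted p = 0.113), and the change was 0.28 (adjusted p = 0.0566) with the trend over coding length removed. Fitting the compared groups alone also ended the call (0.43, adjusted p = 0.0612). In the monosome Elavl1 was at 73.3, 86.7 and 76.7 CPM in WT and at 88.8, 100 and 107 CPM in KO, apart but not past the threshold (0.31, interval 0.03 to 0.59, adjusted p = 0.0713). In the high polysome, where its CPM was highest, the values were 305, 287 and 301 CPM in WT and 277, 303 and 277 CPM in KO (-0.06, interval -0.31 to 0.19, adjusted p = 0.713), and the groups overlapped. Its translation level was 2.05, 1.72 and 1.97 in WT and 1.64, 1.59 and 1.37 in KO, lower in every KO gradient, and the interaction of -0.37 (interval -0.75 to 0.00) did not pass (adjusted p = 0.158), except when the compared groups were fitted alone (-0.46, adjusted p = 0.0465).

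Pum2 passed the test in no fraction. It was at 42.2, 49.0 and 46.4 CPM in the WT monosome and 36.2, 49.1 and 44.4 CPM in KO (log2 -0.11, interval -0.47 to 0.26, adjusted p = 0.665). In the low polysome it was at 49.1, 54.9 and 51.4 CPM in WT and 51.3, 51.7 and 57.7 CPM in KO (0.05, -0.27 to 0.38, adjusted p = 0.807). High polysome values were 52.1, 77.6 and 65.6 CPM in WT and 63.2, 47.5 and 45.5 CPM in KO (-0.32, -0.64 to -0.01, adjusted p = 0.0854). The groups overlapped in each fraction. In the high polysome both gradients of KO clone 2 lay below all WT values while clone 1 lay among them, and without KO gradient 1 the change was -0.47 (adjusted p = 0.0165). It was -0.65 (adjusted p = 0.00181) with the trend over coding length removed, and it passed in 5 of 14 alternatives in all. The log2 ratio of high polysome to monosome was 0.30, 0.66 and 0.49 in WT and 0.80, -0.05 and 0.04 in KO, so the clones stood apart here too. The KO effect on this ratio was -0.22 (95% interval -0.70 to 0.26, adjusted p = 0.538).

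**Figure D3:**
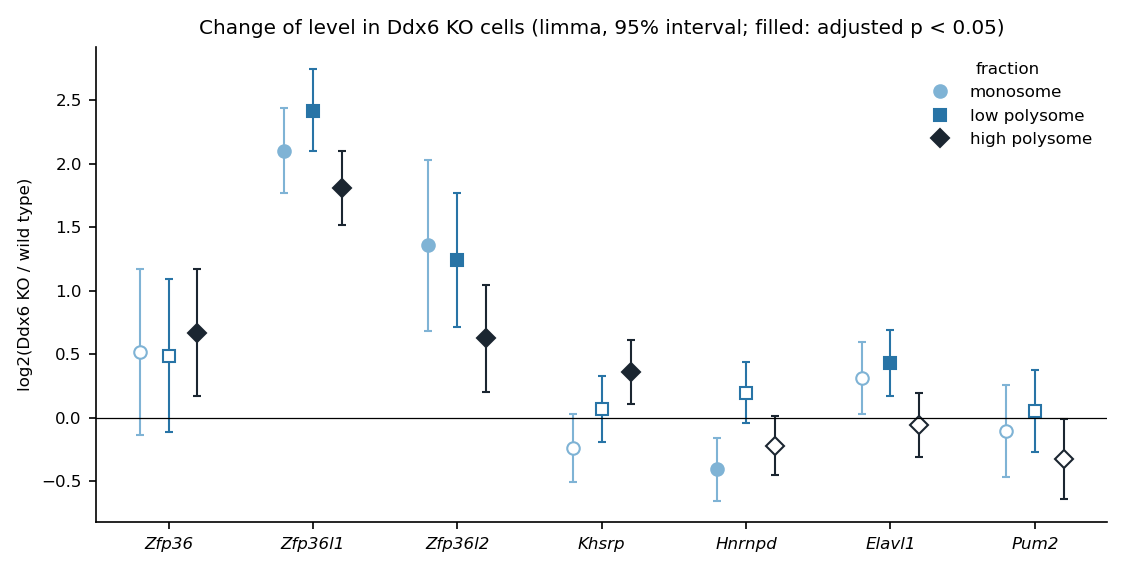
Log2 change of each mRNA in Ddx6 KO over WT (vertical axis) in each of the 3 fractions, with 95% intervals from limma; filled symbols passed an adjusted p of 0.05. Zfp36l1 and Zfp36l2 are filled in all 3 fractions, Zfp36 and Khsrp in the high polysome, Elavl1 in the low polysome and Hnrnpd, downward, in the monosome.

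Counted over the 7 members, 2 were higher and 1 lower in the KO monosome, 3 were higher and none lower in the low polysome, and 4 were higher and none lower in the high polysome. Over all tested genes, 38.6% were called in the monosome (18.6% higher, 20.1% lower), 47.7% in the low polysome (23.4% higher, 24.3% lower) and 46.5% in the high polysome (25.3% higher, 21.1% lower). The groups did not overlap for 5, 3 and 5 members, beside 52.7%, 51.3% and 55.1% of all genes. From monosome to high polysome the median change over members was 0.31, 0.43 and 0.36, where the medians over all genes were -0.03, -0.03 and -0.01. The share of members called was thus not far from that of all genes in any fraction.

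**Figure D4:**
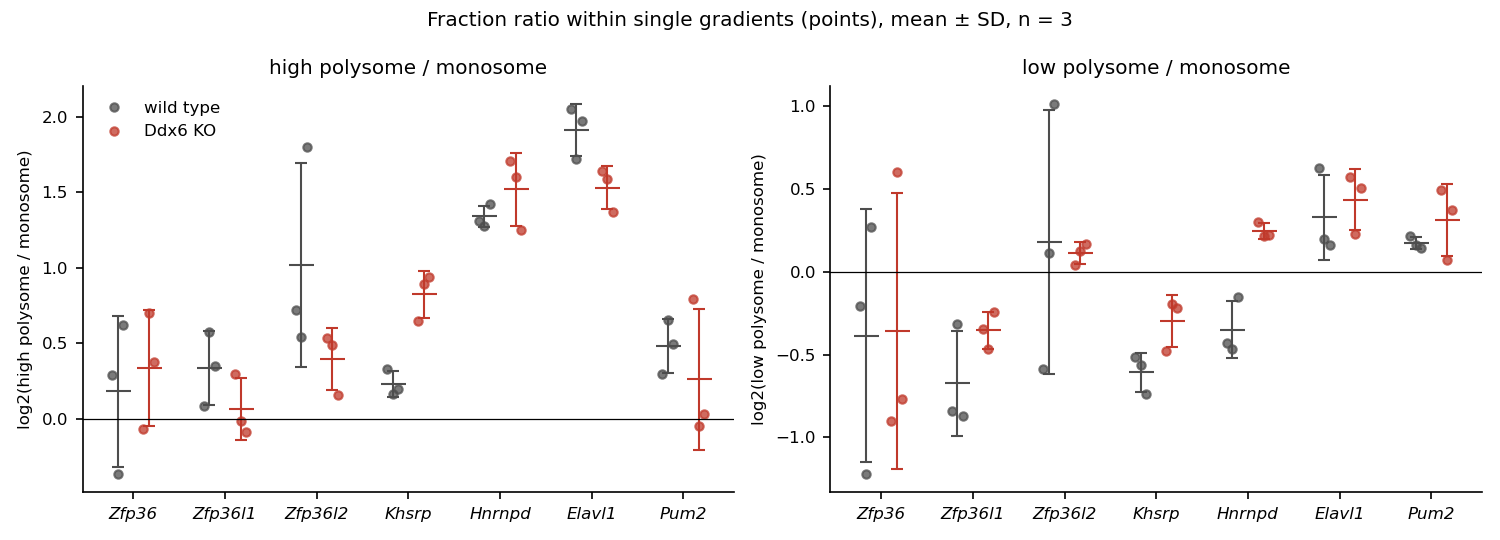
Log2 ratio of high polysome to monosome (left) and of low polysome to monosome (right) in single gradients (points) of WT (grey) and Ddx6 KO (red) ESCs, with mean ± SD (n = 3). The Khsrp high polysome ratio is 0.17 to 0.33 in WT and 0.65 to 0.94 in KO, and the Hnrnpd low polysome ratio is below 0 in the WT gradients and above 0 in the KO gradients.

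The KO effect on translation level followed coding length across genes, and the members differ in length. Zfp36 (960 nt), Elavl1 (981 nt), Zfp36l1 (1017 nt) and Hnrnpd (1068 nt) have short coding regions, and genes of like length had median effects of -0.19, -0.17, -0.14 and -0.11. Their own values were 0.16 (adjusted p = 0.818), -0.37, -0.29 (adjusted p = 0.358) and 0.19. Zfp36l2 (1455 nt) was at -0.73 (interval -1.53 to 0.07, adjusted p = 0.19), where genes of like length had a median of 0.09. Pum2 has the longest coding region of the 7, at 3201 nt, and its -0.22 lay below the median of 0.51 of genes of like length.

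**Figure D5:**
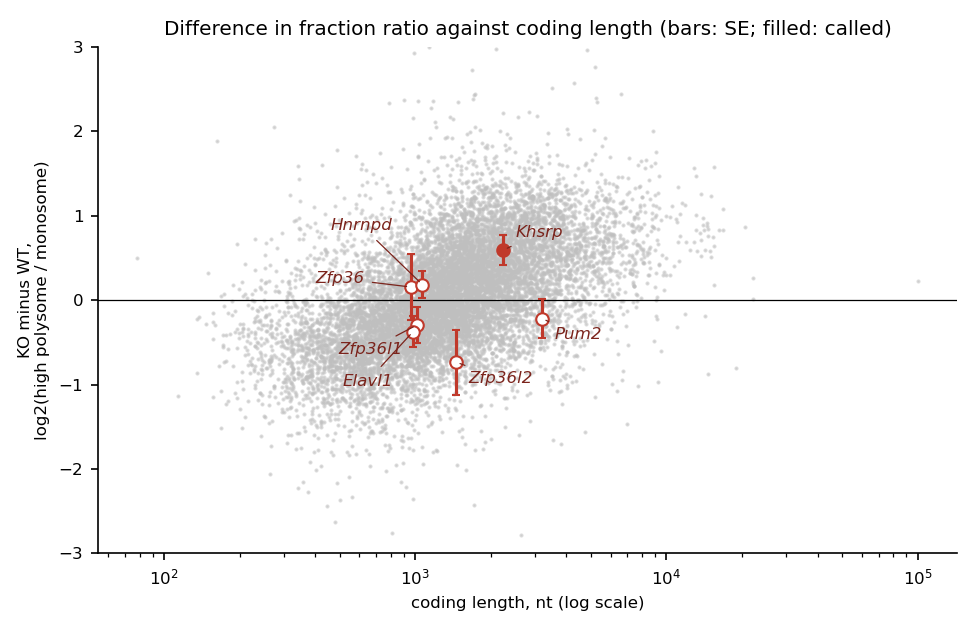
KO minus WT difference in log2 ratio of high polysome to monosome (vertical axis) against coding length (horizontal log axis, nt) for 11773 genes (grey; 7 lie beyond the vertical limits) with the 7 members in red (bars, SE; filled, adjusted p under 0.05). Khsrp, at 0.59, is the filled point, and Pum2, the longest member, lies below most genes of its length.

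Other binders of AU-rich or U-rich sequences, from a list of 18 of which 17 were tested, moved both ways. In the KO high polysome 4 were higher and 8 lower, with a median of -0.15, where 25.3% of all tested genes were higher and 21.1% lower. Tia1, a stress granule protein that represses translation, rose in all 3 fractions, with log2 changes of 0.82, 0.74 and 1.17 from monosome to high polysome (adjusted p of 0.00013, 0.000174 and 2.87e-06). The mRNAs of CPEB proteins, which act on cytoplasmic polyadenylation, moved both ways in the high polysome, from low levels. Cpeb4 rose from a mean of 3.84 CPM in WT to 8.54 CPM in KO (2.21-fold, adjusted p = 0.00453). Cpeb3 rose from 11.7 to 16.2 CPM (1.38-fold, adjusted p = 0.0178). Cpeb2 fell from 6.74 to 4.23 CPM (0.64-fold) and passed narrowly (adjusted p = 0.0468). Celf2, a splicing and decay factor, fell (-1.34, adjusted p = 0.000245), with means of 10.3 CPM in WT and 4.06 CPM in KO. Elavl3, the neuronal relative of Elavl1, averaged 2.96 CPM in the WT high polysome and 1.21 CPM in the KO one. No KO library held more than 2.36 CPM of it, so it passed the filter only through WT libraries. Its place among the 8 lower genes is therefore not read as a result.

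By translation level, 1 of those 17 was higher in KO and 2 were lower, where 17.8% of all tested genes passed. Fubp1, which has KH domains like those of KHSRP, averaged 383 CPM in the WT monosome and 288 CPM in the WT high polysome, and 226 and 331 CPM in KO, and its ratio rose by 0.96 (adjusted p = 0.00328). For Hnrnpab, a close relative of Hnrnpd, the means were 435 and 2270 CPM in WT and 532 and 1730 CPM in KO, and its ratio fell by 0.68 (adjusted p = 0.0311). Tial1, the relative of Tia1, had means of 56.4 and 82.2 CPM in WT and 72.3 and 61.3 CPM in KO, and its ratio fell by 0.78 (adjusted p = 0.0155). How far the ratios of Fubp1, Hnrnpab and Tial1 follow coding length was not tested. Among Nanos and Smaug genes, which also repress mRNAs through 3′ UTRs, Samd4b, a Smaug gene, rose in the KO high polysome (0.42, adjusted p = 0.0213) and Nanos1 fell (-1.27, adjusted p = 9.02e-05).

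Among 26 mRNAs known for AU-rich 3′ UTRs, 18 were tested, and 6 were higher and 4 lower in the KO high polysome, with a median of -0.03, beside the same 25.3% and 21.1% of all genes. The immediate early transcription factor mRNAs Junb and Jun rose by 1.83 (adjusted p = 1.56e-07) and 1.71 (adjusted p = 1.12e-06), and Ier3, an early response gene, rose by 1.26 (adjusted p = 1.08e-05). Ccnd1, the G1 cyclin D1, fell by 0.98 (adjusted p = 6.28e-07), the antiproliferative gene Btg2 fell by 0.79 (adjusted p = 0.000584) and the kinase gene Pim1 fell by 0.74 (adjusted p = 0.00988). Btg2 was also the 1 call of the list by translation level (-0.74, adjusted p = 0.0441), with none higher, where 17.8% of all tested genes passed. How far the Btg2 value follows coding length was not tested either. In the KO low polysome 8 of 18 were higher and 1 lower, with a median of 0.31, beside 23.4% and 24.3% of all genes. In the KO monosome 5 were higher and 3 lower, with a median of -0.01, beside 18.6% and 20.1%. The ratio of low polysome to monosome gave 1 higher and none lower, with a median of 0.26, where 4.71% of all tested genes passed.

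The wider set of genes with a motif match had median KO changes within each fraction close to those of the rest, without a test. The 877 tested genes with the nonamer had median log2 changes of -0.04, 0.01 and 0.03 from KO monosome to KO high polysome, and the 10817 without had 0.00, 0.02 and 0.03. As for calls in the high polysome, 27.7% of the former and 26.9% of the latter were called higher. Their median effect on translation level was 0.11 with and 0.01 without, at median coding lengths of 1515 and 1347 nt. Median 3′ UTR lengths differed more, at 2274 nt with and 934 nt without. For the Pumilio element the effect was 0.05 in 2907 genes with it and 0.00 in 8787 without, at coding lengths of 1599 and 1278 nt. The 3′ UTR medians were 2038 and 775 nt, and the part of 3′ UTR length in these differences was not tested.

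The genes whose log2 CPM followed each member most closely over the 18 libraries are given as a description, since all libraries share the same genotype and fraction structure. Zfp36l1 was closest to Gata2, Slc43a3 and Igfbp7 (Pearson r = 0.98, 0.98 and 0.976), all higher in the KO fractions, with Gata2 averaging 1.42 to 3.68 CPM in WT and 31.6 to 44.7 CPM in KO. Zfp36l2 was closest to Kdr, Tspan1 and Ddx4 (0.94, 0.937 and 0.934), and Zfp36 to Zbtb7c, Iffo2 and Ppm1f (0.877, 0.869 and 0.864). Kdr averaged 0.434 to 1.49 CPM in the WT fractions, under the 3 CPM of the filter, and 3.04 to 9.43 CPM in KO. It thus passed the filter through KO libraries, and its likeness to Zfp36l2 is not read as a result. Elavl1 was closest to Ywhaq, Anp32e and Glod4 (0.99, 0.987 and 0.985), and Hnrnpd was close to Ubr7 and Slc25a4 (0.987 and 0.986), which like them stood highest in the high polysome of both genotypes. Khsrp was closest to Ddx27, Noc4l and Hgs (0.963, 0.956 and 0.947), and Pum2 to Sec62, Slmap and Tmx3 (0.899, 0.899 and 0.897). Among the members, Hnrnpd and Elavl1 were most alike (r = 0.91), then Zfp36l1 and Zfp36l2 (0.821), and Pum2 and Zfp36 ran most apart (-0.269).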

How the data were processed

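QuantSeq 3′ end libraries from 3 gradient fractions of WT and Ddx6 KO ESCs were analysed. The deposited values were raw counts per gene, made by the authors by trimming with cutadapt 1.14, alignment to mm10 with STAR 2.5.3a, restriction to unique alignments and strand-specific counting with featureCounts 1.5.3. No molecular identifiers are mentioned, so PCR copies are among the counts, and reads shared by near-identical copies are missing. Symbols, coding lengths and 3′ UTRs came from Gencode M21 on the same assembly, which matched 51274 genes and left 193 unmatched. The 92 spike-in sequences were left out.

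Genes with at least 3 CPM in at least 3 libraries (12705 genes, 99.6% of counts) received TMM factors (edgeR 4.0.16, R 4.3.3). A limma 3.58.1 model with voom weights estimated the 6 group means from all 18 libraries. The interaction term tested the KO effect on a fraction ratio, p-values were Benjamini-Hochberg adjusted over all tested genes, and calls were made at 0.05. Ratios of single gradients used a pseudocount of 0.5 CPM. The code was tested on simulated data. Alternatives were other scalings, no filter, edgeR's quasi-likelihood test, DESeq2 1.42.0, the compared groups alone, a replicate block, leaving out each gradient, and removal of the coding length trend (lowess span 0.3).

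Besides the members and Ddx6, genes were named from 3 lists where they passed in the interaction, or were among the 3 largest per direction in the KO high polysome, and the 3 genes most correlated with each member were also named. Some genes that this rule selects are not reported here. The members and lists were chosen with earlier results of these data known. Deviations from group means correlated at r = -0.159 to 0.415 between fractions of 1 gradient. These share a number in the labels, and a lysate by the methods of the study. Between WT and KO libraries with the same number, which share a number only, the deviations correlated at r = -0.448 to 0.221.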

Additional observations from a re-analysis of the deposited data

Results flagged for a closer look

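For a pair of members, the fraction ratio differed between Ddx6 KO and WT by the interaction test. For Khsrp the log2 ratio of high polysome to monosome was 0.23 ± 0.08 in WT and 0.83 ± 0.16 in Ddx6 KO gradients (SD, n = 3), and the difference fitted by limma was 0.595 (adjusted p = 0.0247). For Hnrnpd the log2 ratio of low polysome to monosome was -0.35 ± 0.17 in WT and 0.25 ± 0.05 in Ddx6 KO gradients, and the difference was 0.604 (adjusted p = 0.0417). Both differences had the same sign under all 14 alternatives, and Khsrp passed in 7 of them and Hnrnpd in 4.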

How the results depend on the processing

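Over the 42 combinations of member and comparison and 14 alternatives, 508 values kept their direction and side of the threshold, 42 no longer passed, 21 newly passed and 17 changed sign. The calls for Zfp36l1 in Ddx6 KO over WT held in all 14 alternatives in each fraction, at log2 2.00 to 2.20, 2.26 to 2.58 and 1.70 to 1.91, and those for Zfp36l2 in all 14 in the monosome and low polysome and in 10 in the high polysome.

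Leaving out 1 gradient at a time, 2 to 5 members passed in WT high polysome over monosome, 2 to 4 in the KO monosome, 2 to 3 in the low polysome and 1 to 5 in the high polysome, 0 to 1 in the KO effect on the high polysome ratio and 0 in that on the low polysome ratio. The effect on the high polysome ratio had 1 member passing in the main analysis, 0 without the filter on low counts, 0 with the coding length trend removed and 2 with the compared groups only, where Elavl1 was added. The effect on the low polysome ratio had 0 with library size alone, without the filter, with the compared groups only and with the trend removed. With the replicate block, 5 members in place of 4 passed in WT high polysome over monosome, through Zfp36l1 (0.36, adjusted p = 0.0471), and the block changed no other call of a member.

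The sign changes were all of values that did not pass. With the trend removed, Zfp36 in WT high polysome over monosome was -0.025, Pum2 in the KO monosome 0.031 and Khsrp in the KO low polysome -0.0038. The Zfp36 effect on the low polysome ratio was 0.0020 by edgeR and 0.011 by DESeq2. Leaving out 1 gradient gave -0.10 to 0.52 for Zfp36 in WT high polysome over monosome, -0.20 to 0.015 for Pum2 in the KO monosome, -0.014 to 0.14 for Khsrp and -0.039 to 0.094 for Pum2 in the KO low polysome, -0.17 to 0.45 for the Zfp36 effect on the high polysome ratio, and -0.51 to 0.38 for Zfp36 and -0.52 to 0.42 for Zfp36l2 on the low polysome ratio. Scaling by library size alone moved the median effect on the high polysome ratio over all genes from 0.02 to -0.10, and the calls from 1357 higher and 901 lower to 936 and 1386, and those of the low polysome ratio from 294 and 304 to 229 and 494.

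Zfp36 and Zfp36l2 rest on few counts, with as few as 24 and 14 in a library, and the intervals of both Zfp36 ratio effects include the sizes seen for Khsrp and Hnrnpd. There were 3 gradients per genotype and 2 KO clones, so clone and KO cannot be told apart for a value that differed between clones, such as that of Pum2.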
